A study of Mus musculus with 10 samples.

Results

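The cell cycle and DNA replication module comprised 33 genes, chosen by name, of 48471 genes in the deposited files. They were separated into 15 genes of G2 and mitosis (G2/M) and 18 genes of G1 and S phase (G1/S). Their levels were compared between CD90- and CD90+ myofibroblastic cancer-associated fibroblasts (myCAFs) of mouse pancreatic ductal adenocarcinoma (PDAC). All 33 genes were found in the files and all 33 passed the filter on low counts.

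A cell that divides passes through G1, copies its DNA in S phase, and separates the copies in mitosis. In G1, D-type cyclins with CDK4 or CDK6, and then cyclin E with CDK2, phosphorylate the Rb family and release E2F factors, which switch on genes for the MCM helicase, its loaders and nucleotide synthesis. Genes of G2/M are switched on later, by the MuvB complex with B-MYB and FOXM1 at promoters that often carry a CHR element and CCAAT boxes. In tumours these genes are read as markers of proliferation, and in CAF preparations they can come from fibroblasts or from any dividing cell that passes the sort.

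RNA-seq was performed on 10 libraries, 5 of CD90- cells and 5 of CD90+ cells, flow-sorted from tumours that grew in male C57BL/6J mice after KPC T-LOH organoids had been placed orthotopically in the pancreas. All libraries share this host strain and tumour model, and no other treatment is given in the labels. Ages and the remaining gate markers are not stated in the labels. The titles give both fractions of a tumour pool the same animal numbers, so that pools 1 to 5 hold 4, 1, 2, 3 and 1 animals, 11 in all, whereas the design text counts 5 male mice. The unit of replication is therefore the pool (n = 5 per fraction). With the pool as a block, p-values set the difference between the fractions of a pool against its variation over the pools.

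CD90- libraries held 33.3 to 47.7 M estimated counts and CD90+ libraries 11.7 to 38.2 M. Mitochondrial rRNA took 35.6% to 84.4% of the counts in CD90- libraries and 10.5% to 44.8% in CD90+ libraries, which left 3.71 to 19.8 M counts on nuclear protein-coding genes in CD90- libraries and 4.57 to 28.5 M in CD90+ libraries. Thy1, the gene of CD90, had 16.0, 10.2, 8.06, 5.98 and 2.07 CPM (counts scaled to library size) in CD90- pools 1 to 5, against 97.3, 102, 39.2, 89.8 and 117 CPM in CD90+ pools. The groups did not overlap (log2 fold change -3.50, SE 0.50, edgeR adjusted p = 0.00561). None of 10 fibroblast markers was at 0 in any library, but their summed level was 4054 to 20463 CPM in CD90- libraries and 32439 to 53961 CPM in CD90+ libraries, and 9 of the 10 fell. Summed levels of 12 cancer epithelial markers were 725 to 3047 CPM in CD90- libraries and 185 to 1656 CPM in CD90+ libraries, with 7 of the 12 higher and none at 0 in all libraries (Cldn7 was at 0 in CD90+ pools 1 and 3 and Esrp1 in CD90+ pool 4). Endothelial markers (7, of which 2 higher) summed to 30.9 to 248.6 CPM in CD90- and 26.8 to 37.5 CPM in CD90+ libraries, and macrophage markers (8, of which 2 higher) to 17.4 to 83.7 CPM in CD90- and 7.97 to 14.8 CPM in CD90+ libraries. Pericyte markers (6, none called) summed to 12.0 to 159.6 CPM in CD90- and 48.5 to 81.2 CPM in CD90+ libraries. At an unadjusted edgeR p under 0.05, 4 of the 6 were lower in CD90- and 1 higher, beside 26.9% of all genes tested in either direction. Acinar markers summed to 2.04 to 33.4 CPM in CD90- and 1.26 to 3.83 CPM in CD90+ libraries, and 1 of the 2 tested, Ctrb1, was higher. T and NK cell markers summed to at most 6.41 CPM in CD90- and 3.87 CPM in CD90+ libraries. Other leukocyte markers, summed apart from these, came to at most 7.26 CPM in CD90- and 6.26 CPM in CD90+ libraries. Of the 5 tested in both lists, 0 were called by edgeR, 0 also at an unadjusted p under 0.05. Cd8a, Nkg7, Gzma and Prss1 were at 0 in every library. The part of these cells in the levels of the 33 genes was not tested.

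Promoter windows of a few members are shown first, because they display sequence elements described for G1/S and G2/M genes. Mcm6 and Mcm7 are the members whose level passed the test, and Mki67, Cdk1 and Ccnb2 stand for G2/M. These 3 were taken from the 6 of 12 G2/M windows that held both a CHR and a CCAAT box. Each line holds the 250 bases before the start of the gene, 5′ to 3′ on the gene's strand, from RefSeq on GRCm38.p6: Mcm6 at chr1:128359706-128359955, the outer of the 2 windows of Mcm7 at chr5:138171884-138172133, Ccnb2 at chr9:70421555-70421804, Cdk1 at chr10:69352913-69353162 and Mki67 at chr7:135716380-135716629, all on the minus strand. Capitals mark the CHR motif TTTGAA, the CCAAT box CCAAT and the E2F motifs TTCCCGC or TTGGCGC, each searched on both strands.
Mcm6: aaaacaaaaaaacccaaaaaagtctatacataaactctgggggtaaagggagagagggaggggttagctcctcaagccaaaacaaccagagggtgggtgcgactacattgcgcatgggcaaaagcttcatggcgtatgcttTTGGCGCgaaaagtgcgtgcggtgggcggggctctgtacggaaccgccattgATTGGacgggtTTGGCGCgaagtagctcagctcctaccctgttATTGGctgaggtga
Mcm7: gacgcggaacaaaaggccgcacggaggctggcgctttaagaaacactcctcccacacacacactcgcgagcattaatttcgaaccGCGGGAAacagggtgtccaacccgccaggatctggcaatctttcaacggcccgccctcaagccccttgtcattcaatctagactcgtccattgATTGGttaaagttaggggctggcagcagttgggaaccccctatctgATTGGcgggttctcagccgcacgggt
Ccnb2: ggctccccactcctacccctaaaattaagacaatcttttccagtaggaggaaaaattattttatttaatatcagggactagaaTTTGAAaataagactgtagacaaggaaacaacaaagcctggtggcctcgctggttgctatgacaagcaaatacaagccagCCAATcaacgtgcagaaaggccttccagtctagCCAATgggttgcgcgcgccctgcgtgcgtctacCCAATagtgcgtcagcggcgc
Cdk1: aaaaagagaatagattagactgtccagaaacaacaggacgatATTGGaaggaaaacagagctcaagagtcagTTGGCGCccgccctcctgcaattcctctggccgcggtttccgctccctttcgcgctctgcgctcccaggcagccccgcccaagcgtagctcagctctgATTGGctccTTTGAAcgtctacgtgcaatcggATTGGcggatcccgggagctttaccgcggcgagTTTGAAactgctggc
Mki67: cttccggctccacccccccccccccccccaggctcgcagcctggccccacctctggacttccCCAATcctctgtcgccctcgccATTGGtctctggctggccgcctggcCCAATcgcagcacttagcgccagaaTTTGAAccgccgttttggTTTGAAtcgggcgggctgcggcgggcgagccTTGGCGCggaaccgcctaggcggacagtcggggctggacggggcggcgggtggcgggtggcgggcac

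The Mcm6 window held 2 TTGGCGC motifs, 109 and 46 bases before the start, and 2 CCAAT boxes and no CHR. The Cdk1 window held 2 CHR motifs, 71 and 15 bases before the start, beside 3 CCAAT boxes and 1 E2F motif. The Mki67 window also held 2 CHR motifs, 3 CCAAT boxes and 1 E2F motif. In the Ccnb2 window 3 CCAAT boxes followed each other at 87, 54 and 21 bases before the start. Of 12 windows of 12 G2/M genes, 6 (50.0%) held a CHR, 11 (91.7%) a CCAAT box and 3 (25.0%) an E2F motif. Of 16 windows of 14 G1/S genes, 1 (6.25%) held a CHR, 11 (68.8%) a CCAAT box and 7 (43.8%) an E2F motif. Over all 32851 windows of the table the shares were 16.0%, 33.8% and 5.62%. Motifs overlapped each other in 163 of the 32851 windows (0.496%) and in 1 of the 28 member windows. The table gave windows for 26 of the 33 members; Gins2, Ccna2, Tpx2, Ccne2, Gins1, Mcm4 and Aurkb had none.

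The G2/M genes were tested one by one between the fractions, and their level as a group was not tested. Their summed level was 351, 224, 639, 330 and 337 CPM in CD90- pools 1 to 5, against 366, 223, 542, 387 and 200 CPM in CD90+ pools. The means were 376 ± 155 CPM in CD90- libraries and 343 ± 139 CPM in CD90+ libraries (SD, n = 5 each), with 3 of 5 pools higher in CD90-. Across all 15378 genes tested, edgeR's quasi-likelihood test with the pool as a block and Benjamini-Hochberg adjustment called 12.9%, 5.83% higher and 7.05% lower in CD90-. Of the 15 G2/M genes, 0 were called, and 2 had an unadjusted p under 0.05, both with a positive fold; this share of unadjusted p was 26.9% over all genes tested. DESeq2, which called 11.1% of all genes higher and 12.3% lower, called 1 of the 15 (higher), and limma-voom, at 7.45% and 7.34%, called 0. The group's median log2 fold change was 0.07, beside 0.04 over all genes tested, with 8 positive and 7 negative. In 7 of the 15 the 95% interval lay within a 2-fold change either way.

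**Figure D1:**
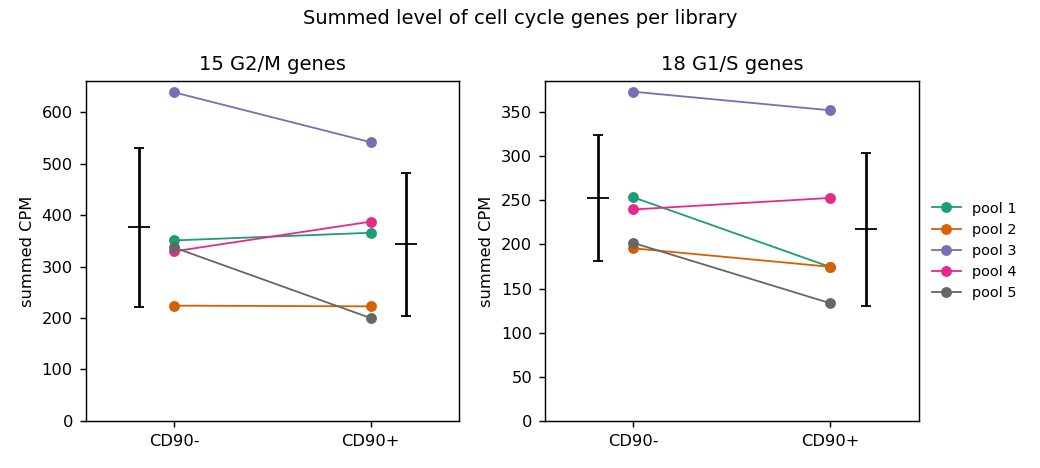
Summed CPM of the 15 G2/M genes (left) and 18 G1/S genes (right) in each CD90- and CD90+ library, with lines joining the fractions of a pool and bars giving mean ± SD (n = 5). Pool 3 is highest in both fractions, at 639 against 542 CPM for G2/M and 373 against 352 CPM for G1/S.

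Mki67, which encodes the Ki-67 protein used to mark cycling cells, had 146, 110, 285, 138 and 152 CPM in CD90- pools 1 to 5, against 160, 88.1, 223, 154 and 82.0 CPM in CD90+ pools. The ranges overlapped, and 3 of 5 pools were higher in CD90- (log2 fold change 0.26, 95% interval -0.13 to 0.64, edgeR adjusted p = 0.398). Top2a, the topoisomerase that untangles chromosomes, had 50.2, 35.3, 93.5, 49.7 and 57.8 CPM in CD90- pools, against 48.9, 34.2, 77.3, 64.1 and 6.09 CPM in CD90+ pools. Its low value in CD90+ pool 5 stood beside the smallest CD90+ library, and the log2 fold change of 0.52 (95% interval -0.60 to 1.63) was -0.026 without pool 5.

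The mitotic kinase Cdk1 and its cyclins Ccnb1, Ccnb2 and Ccna2 were each higher in CD90- in 2 of 5 pools. Cdk1 averaged 9.16 ± 6.81 CPM in CD90- libraries and 10.4 ± 5.71 CPM in CD90+ libraries, a log2 fold change of -0.35 (95% interval -0.98 to 0.28). Log2 fold changes were 0.07 for Ccnb1, -0.32 for Ccnb2 and -0.38 for Ccna2, the cyclin that also acts in S phase, with adjusted p from 0.601 to 0.932. The mitotic kinases Aurka, Aurkb and Plk1 were low, between 0 and 13.1 CPM in every library, and their log2 fold changes of 0.29, 0.71 and -0.43 had intervals wider than 3 log2 units. Birc5 (survivin, the partner of Aurora B), Cenpf (a kinetochore protein), Tpx2 (a spindle assembly factor) and Cdc20 (an activator of the APC/C) had log2 fold changes of 0.13, -0.17, -0.19 and -0.36 with intervals within 1 log2 unit of 0.

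Kif11, the kinesin that pushes spindle poles apart, had 20.3, 11.4, 26.0, 20.9 and 28.2 CPM in CD90- pools 1 to 5, against 11.1, 9.69, 19.5, 16.3 and 7.56 CPM in CD90+ pools. It was higher in CD90- in 5 of 5 pools although the ranges overlapped, and it did not pass the test (log2 fold change 0.74, SE 0.27, adjusted p = 0.104). Bub1, a kinase of the spindle checkpoint, rested on few counts: 12, 6, 142, 29 and 95 in CD90- pools and 0, 0, 151, 2 and 0 in CD90+ pools. Its log2 fold change of 4.63 (95% interval 1.43 to 7.82, adjusted p = 0.0622) therefore depends on 3 CD90+ libraries at 0. It was called by DESeq2 (adjusted p = 0.000334) and by edgeR when low counts were kept (adjusted p = 0.00838).

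**Figure D2:**
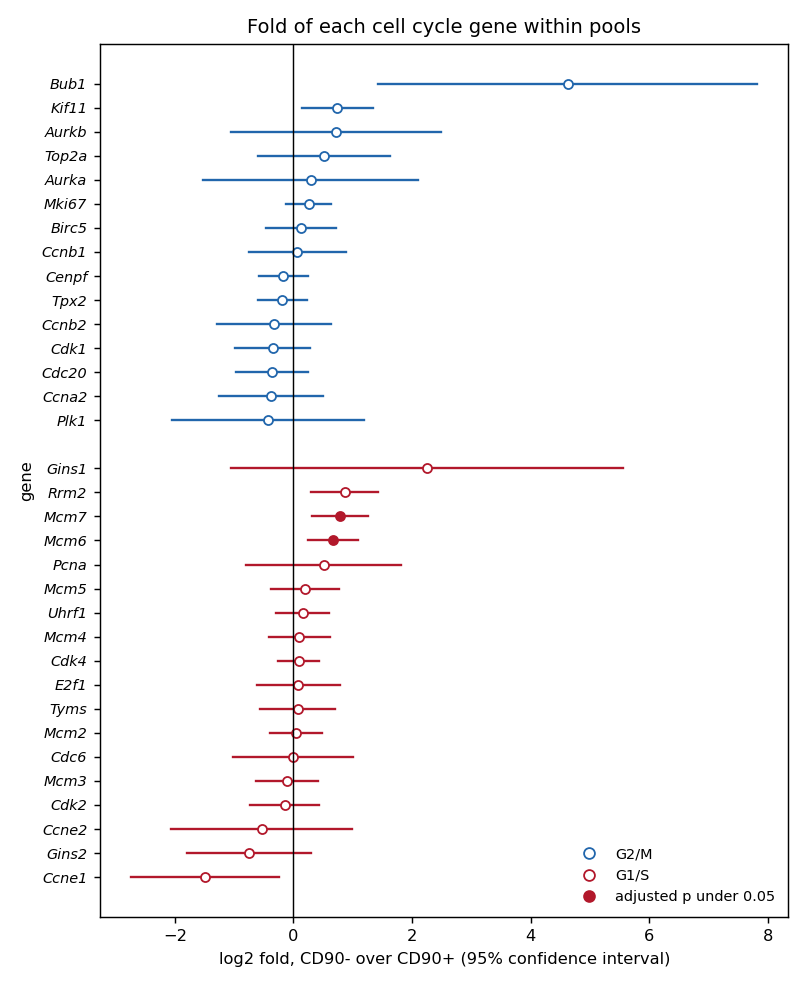
Log2 fold change of each gene, CD90- over CD90+, with its 95% confidence interval derived from the edgeR test with the pool as a block. G2/M genes are in blue above and G1/S genes in red below. Filled points mark Mcm7 (0.78) and Mcm6 (0.67), the members with an adjusted p under 0.05.

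Among the 18 G1/S genes, 2 subunits of the replicative helicase, Mcm6 and Mcm7, rose in CD90- cells and 0 genes fell. The 2 of 18 stand beside 5.83% of all genes called higher, and the 0 beside 7.05% called lower. Over all 33 members, 2 (6.06%) were called higher and 0 lower, so the share called higher was near that of all genes. Of the 18, 4 had an unadjusted edgeR p under 0.05, 3 with a positive fold, beside 26.9% of all genes tested. DESeq2 called 3 of the 18 higher (Mcm6, Mcm7 and Rrm2) and 1 lower (Ccne1), and limma-voom Mcm6 and Mcm7. The median log2 fold change was 0.09, with 12 positive and 6 negative. Summed G1/S levels were 253, 196, 373, 240 and 202 CPM in CD90- pools 1 to 5, against 174.5, 174.7, 352, 253 and 133 CPM in CD90+ pools. The means were 253 ± 71.6 CPM in CD90- libraries and 217 ± 86.7 CPM in CD90+ libraries, with 4 of 5 pools higher in CD90-. Within pools the log2 ratio of CD90- to CD90+ averaged 0.26 (SD 0.29), and it was not tested. In bulk libraries, a difference in the share of cycling cells and a difference in these RNAs per cell cannot be told apart.

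The MCM proteins 2 to 7 form a ring of 6 different subunits that is loaded onto origins in G1 and unwinds DNA in S phase. Mcm7 had 30.6, 33.1, 26.6, 35.2 and 27.4 CPM in CD90- pools 1 to 5, against 14.9, 13.0, 24.5, 25.4 and 14.2 CPM in CD90+ pools. Every CD90- library was above every CD90+ library, as for 3.32% of all genes tested (log2 fold change 0.78, SE 0.21, 95% interval 0.31 to 1.26, edgeR adjusted p = 0.0378). Mcm6 had 35.9, 29.9, 48.3, 44.4 and 25.0 CPM in CD90- pools, against 16.2, 14.1, 36.6, 33.8 and 19.8 CPM in CD90+ pools. It was higher in 5 of 5 pools, with overlapping ranges (log2 fold change 0.67, SE 0.19, 95% interval 0.25 to 1.09, adjusted p = 0.0431). Neither passed without the pool block (adjusted p = 0.0788 for Mcm7 and 0.257 for Mcm6) or with a transcript length offset (0.180 and 0.0893). Mcm6 lost its call when any 1 pool was left out (adjusted p 0.0554 to 0.185), and Mcm7 when pool 1, 2, 4 or 5 was left out (0.0887 to 0.157).

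The other 4 subunits were not called. Mcm2 averaged 19.9 ± 5.72 CPM in CD90- libraries and 19.1 ± 4.78 CPM in CD90+ libraries (log2 fold change 0.04, 95% interval -0.40 to 0.49). Mcm3, Mcm4 and Mcm5 had log2 fold changes of -0.11, 0.10 and 0.20, and none of the adjusted p was below 0.688. Per length, in TPM (transcript abundance per length, scaled over nuclear protein-coding genes), Mcm6 and Mcm7 together held 53.8%, 63.7%, 51.0%, 53.5% and 55.9% of the summed TPM of the 6 subunits in CD90- pools 1 to 5, against 44.5%, 37.7%, 38.5%, 50.4% and 58.5% in CD90+ pools. This share was higher in CD90- in pools 1 to 4 and lower in pool 5; the pair was chosen after its values were seen. Of the Mcm7 reads, summed over the 5 libraries of a fraction, 11.9% in CD90- and 4.97% in CD90+ fell on retained-intron transcripts. Of the Mcm6 reads, nearly none did.

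**Figure D3:**
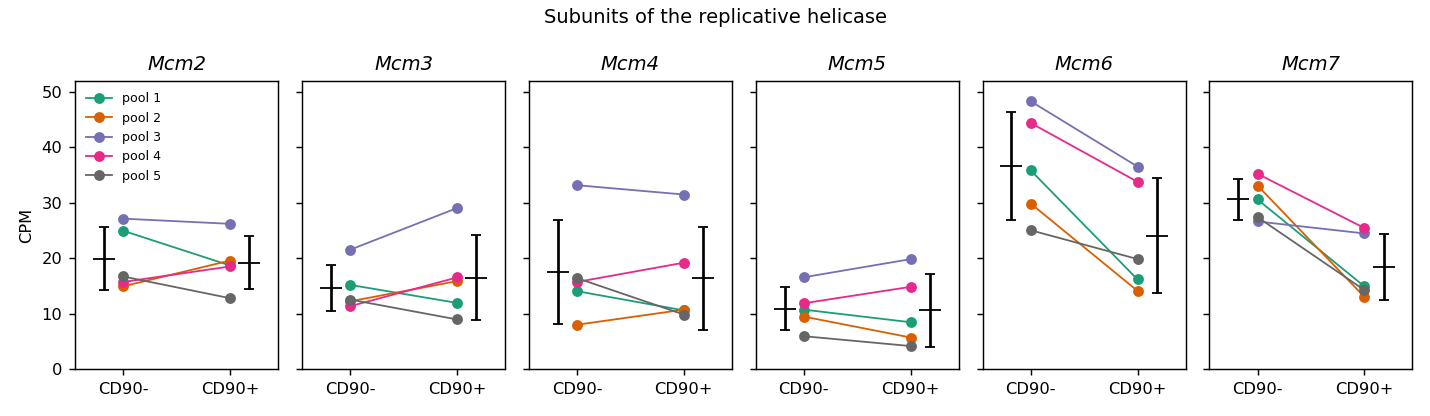
CPM of the 6 helicase subunits in each CD90- and CD90+ library, with lines joining the fractions of a pool and bars giving mean ± SD (n = 5). Mcm6 and Mcm7 slope down from CD90- to CD90+ in 5 of 5 pools, whereas Mcm2 to Mcm5 go both ways.

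The loaders and partners of the helicase gave small or imprecise differences. Cdc6, which loads the helicase with the origin recognition complex, averaged 3.89 ± 2.70 CPM in CD90- libraries and 3.76 ± 1.95 CPM in CD90+ libraries (log2 fold change -0.01, 95% interval -1.02 to 1.01). Gins1 and Gins2, subunits of the complex that activates it, had log2 fold changes of 2.25 (95% interval -1.05 to 5.56) and -0.75 (95% interval -1.80 to 0.29). Gins1 had 1, 1, 149, 28 and 0 counts in CD90+ pools 1 to 5, so its fold has little precision. Gins2 was lower in CD90- in 5 of 5 pools, at 1.03 to 5.98 CPM in CD90- and 2.89 to 6.92 CPM in CD90+ libraries (adjusted p = 0.354). Pcna, the sliding clamp of the polymerases, averaged 16.0 ± 6.97 CPM in CD90- and 12.1 ± 7.79 CPM in CD90+ libraries (log2 fold change 0.51, adjusted p = 0.637). Without pool 5 the Pcna log2 fold change was -0.086. In CD90+ pool 5, 16 counts were on Pcna and 54.2 on its processed pseudogene Pcna-ps2. The pseudogene also had 43.4 and 14.9 counts in CD90- pools 3 and 4, beside 1157 and 105 on Pcna. Every other library had at most 3.15 on it. Reads of the near-identical copies may be split where both are counted. Uhrf1, which carries DNA methylation onto the new strand, had a log2 fold change of 0.16 (95% interval -0.29 to 0.60).

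In nucleotide synthesis the subunits of ribonucleotide reductase had fold changes of opposite sign, and neither was called. Rrm2, the small subunit, had 21.1, 14.5, 34.0, 20.4 and 9.64 CPM in CD90- pools 1 to 5, against 7.41, 8.55, 23.4, 18.4 and 3.63 CPM in CD90+ pools. It was higher in CD90- in 5 of 5 pools (log2 fold change 0.86, 95% interval 0.30 to 1.42, edgeR adjusted p = 0.0506), and 7 of 18 alternative settings called it. Rrm1, the large subunit, which is not among the 33, had 22.6, 8.31, 53.9, 20.3 and 15.6 CPM in CD90- pools, against 36.6, 33.2, 59.4, 42.3 and 21.2 CPM in CD90+ pools. It was lower in CD90- in 5 of 5 pools (log2 fold change -0.86, adjusted p = 0.0553). The ratio of Rrm2 to Rrm1 TPM was 1.00, 1.93, 0.86, 0.97 and 0.45 in CD90- pools and 0.23, 0.55, 0.43, 0.65 and 0.14 in CD90+ pools, higher in CD90- in each pool; the pair was chosen after its values were seen, and the opposite folds of its genes fix this direction. Tyms, which makes thymidylate, averaged 8.17 ± 3.17 CPM in CD90- and 8.21 ± 4.14 CPM in CD90+ libraries (log2 fold change 0.07). Its leading transcript took 32.3% of its CD90- reads and 34.5% of its CD90+ reads, each summed over the 5 libraries.

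The cyclins and kinases of G1 among the members gave no call in edgeR. Ccne1, the cyclin that drives entry into S phase with CDK2, had 3.89, 0.872, 6.95, 1.60 and 0.554 CPM in CD90- pools 1 to 5, against 5.96, 4.06, 8.93, 3.16 and 6.78 CPM in CD90+ pools. It was lower in CD90- in 5 of 5 pools and did not pass (log2 fold change -1.49, SE 0.56, edgeR adjusted p = 0.117), whereas DESeq2 gave an adjusted p of 0.0258. Its paralogue Ccne2 was at 0.637 to 6.83 CPM in CD90- and 0.295 to 5.10 CPM in CD90+ libraries (log2 fold change -0.54, 95% interval -2.06 to 0.99). Cdk4 averaged 30.9 ± 9.18 CPM in CD90- and 29.5 ± 10.6 CPM in CD90+ libraries, a log2 fold change of 0.09 with a 95% interval from -0.26 to 0.43. Cdk2 and E2f1, the factor that gives the E2F family its name, had log2 fold changes of -0.15 and 0.08.

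Of 7 D-type cyclins, CDK6 and CDK-activating subunits, 2 were called, and of 7 CDK inhibitors 2, beside 12.9% of all genes tested. Ccnd1, the cyclin D1 partner of CDK4 and CDK6, rose: it had 157, 120, 121, 141 and 86.9 CPM in CD90- pools 1 to 5, against 23.9, 15.1, 13.1, 34.1 and 54.9 CPM in CD90+ pools, with no overlap (log2 fold change 2.35, SE 0.37, edgeR adjusted p = 0.00653). Cdk6 rose with 92.3 ± 21.9 CPM in CD90- and 54.6 ± 20.4 CPM in CD90+ libraries (log2 fold change 0.79, adjusted p = 0.0217), but its adjusted p was 0.0869 without the pool block and 0.0848, 0.0554 and 0.0775 without pool 1, 2 or 4. Of the 7 CDK inhibitors, Cdkn2a, the locus of p16INK4a and p19ARF, rose and Cdkn1c (p57) fell. Cdkn2a had 41.1, 41.9, 6.47, 50.8 and 52.1 CPM in CD90- pools, against 7.36, 7.53, 2.55, 12.2 and 28.1 CPM in CD90+ pools (log2 fold change 1.85, SE 0.27, adjusted p = 0.00377; 0.136 without the pool block). Pool 3, which had the highest summed level of the 33 genes in both fractions, had the lowest Cdkn2a in both. Cdkn1c had 1.89, 2.61, 1.72, 8.22 and 1.66 CPM in CD90- pools, against 13.6, 15.1, 6.15, 8.50 and 4.42 CPM in CD90+ pools (log2 fold change -1.76, adjusted p = 0.0309). The Cdkn1c call was lost without the pool block (adjusted p = 0.0897), with the length offset (0.151) and without pool 1, 2 or 3 (0.146, 0.106 and 0.0615). Cdkn1a (p21), Cdkn1b (p27), Cdkn2b, Cdkn2c and Cdkn2d had log2 fold changes of -0.50, 0.26, 0.04, -0.79 and 0.43 and were not called. The inhibitors had a median log2 fold change of 0.04, and the D-type cyclins, CDK6 and CDK-activating subunits one of 0.19 with 2 of 7 higher. Of these 7 cyclin and kinase genes, 4 had a positive and 3 a negative fold, the lowest -0.68. At an unadjusted edgeR p under 0.05, 2 of the 7 were higher and 1 lower, beside 26.9% of all genes tested in either direction.

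**Figure D4:**
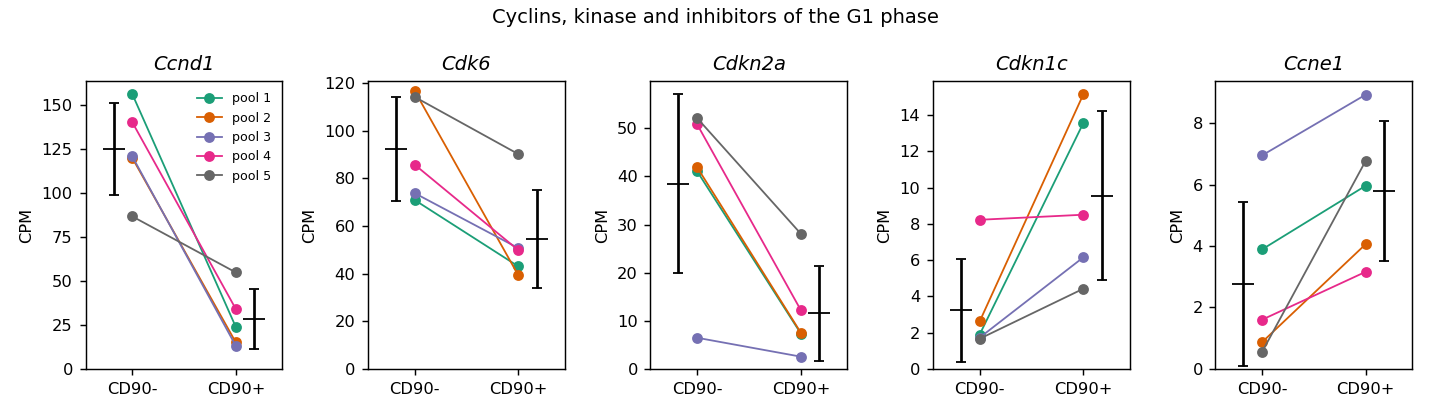
CPM of cyclin D1, CDK6, 2 CDK inhibitors and cyclin E1 in each CD90- and CD90+ library, with lines joining the fractions of a pool and bars giving mean ± SD (n = 5); each panel has its own scale from 0. Ccnd1, Cdk6 and Cdkn2a are higher in CD90- in 5 of 5 pools, Cdkn1c and Ccne1 lower in 5 of 5.

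Over all 10 further lists of cell cycle genes, 154 genes were tested, 8 were higher and 1 lower in CD90-, with a median log2 fold change of 0.12. The 5.19% called higher and 0.649% called lower stand beside 5.83% and 7.05% of all genes tested, so the lists as a whole held no more calls than other genes. Of 21 genes of replication polymerases, clamp loader and ligase, 1 rose: Pola2, a subunit of the primase complex, had 20.4, 15.4, 18.5, 18.6 and 20.3 CPM in CD90- pools 1 to 5, against 6.71, 13.3, 9.14, 9.70 and 5.50 CPM in CD90+ pools, with no overlap (log2 fold change 1.12, edgeR adjusted p = 0.0260). It was not called without pool 1, 4 or 5 (adjusted p = 0.123, 0.0797 and 0.0697). In mitosis, Kif23, a kinesin of the midbody, rose with 45.6 ± 24.4 CPM in CD90- and 20.2 ± 11.1 CPM in CD90+ libraries (log2 fold change 1.16, adjusted p = 0.00767; 0.0952 without the pool block). Kif20b, another kinesin of cytokinesis, had 21.8 to 27.6 CPM in CD90- libraries and 7.66 to 18.7 CPM in CD90+ libraries without overlap (log2 fold change 1.00, adjusted p = 0.0250). Its call was lost with the length offset (adjusted p = 0.196) and without pool 1, 2, 4 or 5 (0.0588 to 0.0830). These were 2 of 19 mitotic kinesin, spindle and cytokinesis genes, whose median log2 fold change was -0.06. Incenp, the scaffold of the chromosomal passenger complex, rose by 0.94 on the log2 scale (edgeR adjusted p = 0.0200), 1 of 17 checkpoint and kinetochore genes. It was not called without the pool block (adjusted p = 0.0647), with the length offset (0.0678) or without pool 1, 2, 4 or 5 (0.0696 to 0.0791). DESeq2 and limma-voom each called 1 gene of this list lower, Spc24, which edgeR did not call. Smc3, a cohesin subunit, rose by 0.66 (adjusted p = 0.0352; higher in 4 of 5 pools), 1 of 21 condensin, cohesin and APC/C genes, and was not called without pool 1, 2, 4 or 5 (0.102 to 0.159).

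No gene was called by edgeR in 4 lists: 18 Rb family, E2F and DREAM genes and 19 G2/M regulators, with 0 at an unadjusted p under 0.05, 17 licensing and firing genes with 1, and 8 nucleotide supply genes with 2. Among these, limma-voom called 0 and DESeq2 called Rrm1 alone, as lower. Their median log2 fold changes were 0.03, 0.18, 0.17 and 0.19. The genes nearest to a call were Lin9 (1.63) and E2f3 (-0.32), Nek2 (0.62) and Ube2s (-0.36), Mcm10 (1.28) and Dbf4 (0.75), and, beside Rrm1, Samhd1 (-0.48), all with an adjusted p above 0.05. Lin54 was not analysed here.

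One pool stood high in both fractions. Pool 3 had the highest CPM in CD90- for 28 of the 33 genes and in CD90+ for 30, and in both fractions for 27 (81.8%), whereas it was highest in both for 12.9% of all genes tested. Pool 5 was lowest in CD90+ for 21 of 33 (63.6%), beside 37.7% of all genes tested. Pool 2 was lowest in CD90- for 20 of 33 (60.6%), beside 25.0%. That CD90- pool 2 library held 248.6 CPM of endothelial markers, against 30.9 to 60.2 CPM in the other CD90- libraries, and 159.6 CPM of pericyte markers, against 12.0 to 32.7 CPM. The median log2 ratio of CD90- to CD90+ over the G2/M genes was 0.02, 0.02, 0.12, -0.32 and 0.89 in pools 1 to 5, and over the G1/S genes 0.33, -0.14, 0.06, -0.31 and 0.47. Within-pool medians of both groups were thus negative in pool 4, which held the CD90- library with 84.4% mitochondrial rRNA, and highest in pool 5, which held the CD90+ library of 4.57 M nuclear protein-coding counts. Pool 3 had the lowest epithelial marker sum in both fractions, 725 CPM in CD90- and 185 CPM in CD90+. It also had the lowest mitochondrial rRNA share of each fraction, 35.6% in CD90- and 10.5% in CD90+, and the most nuclear protein-coding counts, 19.8 M in CD90- and 28.5 M in CD90+. The part of these measures in the level of the module was not tested.

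**Figure D5:**
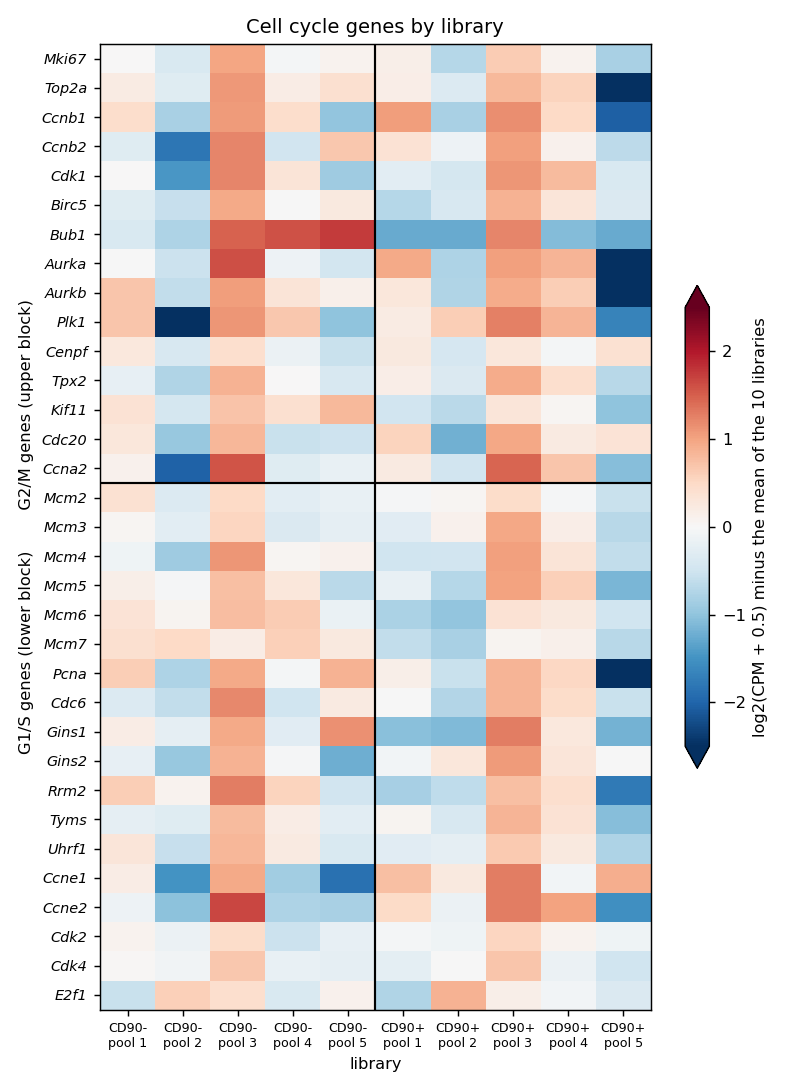
Log2(CPM + 0.5) of each of the 33 genes minus its mean over the 10 libraries, CD90- pools 1 to 5 left of CD90+ pools 1 to 5, G2/M genes above the line and G1/S genes below it; colours stop at 2.5 either way. The pool 3 columns are red in both fractions, where 27 of 33 genes were highest, and the CD90+ pool 5 column is mostly blue.

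Per length, Cdk4 was the most abundant member in both fractions, with 155 ± 45.1 TPM in CD90- libraries and 126 ± 59.4 TPM in CD90+ libraries. Bub1 was the lowest, with 4.57 ± 1.42 TPM in CD90- and 1.09 ± 2.30 TPM in CD90+ libraries. Mcm7 had rank 2 in CD90- libraries, at 93.2 ± 23.7 TPM, and rank 5 in CD90+ libraries, at 55.7 ± 11.9 TPM. Mki67 had rank 3 in both, at 91.8 ± 40.3 TPM in CD90- and 72.5 ± 29.9 TPM in CD90+, within 1 SD of Mcm7. Cdk1 had rank 11 in CD90- and rank 2 in CD90+ libraries. Levels per length of Cdk1 and Cdk4 rest on their transcripts. Shares of the reads of a single gene were taken over the 5 libraries of a fraction together. Pool 3 held 1010 of the 1547 Cdk1 counts in CD90- and 1214 of the 2147 in CD90+. Of the Cdk1 reads, 20.5% in CD90- and 26.4% in CD90+ were on retained-intron transcripts, and of the Cdk4 reads 19.2% and 22.8%. Over the 33 genes together that share was 2.18% to 6.29% in CD90- libraries and 3.31% to 5.54% in CD90+ libraries, higher in CD90- in 1 of 5 pools. Over nuclear protein-coding genes it was 5.22% to 7.21% in CD90- and 4.77% to 5.70% in CD90+ libraries, higher in CD90- in 5 of 5 pools.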

How the data were processed

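The authors deposited, per library, an estimated count, a TPM value and an effective length for 144584 transcripts, per the submitters' processing notes with Salmon 1.9.0; the builds listed there are GRCm39 and mm39, and no source used here names the annotation release or the strand and bias settings. Of the transcripts, 133666 (92.4%) matched the GENCODE M21 annotation, which gave gene names, biotypes and the assignment of transcripts to genes. The 10918 unmatched transcripts were left out of the gene sums. They held 3.63% to 8.02% of the counts in CD90- libraries and 8.60% to 12.1% in CD90+ libraries. Estimated counts were summed per gene and rounded. The deposited TPM values were summed per gene and rescaled to the same total over nuclear protein-coding genes. Total counts were 11.7 to 47.7 M per library; PCR without molecular identifiers makes counts less precise than their number.

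Genes were filtered with filterByExpr, normalised by TMM and tested in edgeR 4.0.16 (R 4.3.3) with glmQLFit (robust) and glmQLFTest, CD90- over CD90+, with the tumour pool as a block, and Benjamini-Hochberg adjustment over 15378 genes at a threshold of 0.05. CPM are counts per 1e6 of the TMM-scaled library. Intervals are 95%. The script was tested on simulated data. Pairing comes from the shared animals in the titles; deviations of the paired libraries from their group means correlated at 0.05, 0.03, 0.54, 0.06 and 0.27 in pools 1 to 5 over all genes tested. Libraries of 1 fraction differed well beyond sampling noise (chi-square per degree of freedom at least 39.2). Scaling to nuclear protein-coding counts instead would add 0.24 on average to every log2 ratio.

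The members and lists were chosen with earlier results of these data known. Named genes are every member, up to 4 called genes with the smallest p per further list (or the 2 with the smallest p where none was called), Ccnd1, the CDK inhibitors and Thy1. Spc24 is named for its calls in DESeq2 and limma-voom. Alternatives were no block, other normalisations, DESeq2 1.42.0, limma 3.58.1 (voom), other filters, a transcript length offset, no mitochondrial genes, protein-coding genes only, mitochondrial rRNA share as a covariate, pools left out and a threshold of 0.01.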

Additional observations from a re-analysis of the deposited data

Results flagged for a closer look

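In 70 groups of 5 libraries (each member and 2 sums, per fraction), the gap from the extreme library to the next, divided by the range, was compared with Dixon's critical value of 0.71; chance passes about 1 in 20 groups. It was passed 7 times, each time by pool 3 as the highest library. In CD90- libraries this was Mki67 (0.761), Aurka (0.872), Ccne2 (0.842) and Cdk4 (0.769). In CD90+ libraries it was Bub1 (0.973), Gins2 (0.75) and Cdk2 (0.75). Mki67 was at 285 CPM in CD90- pool 3 and at 110 to 152 CPM in the other CD90- pools. Bub1 had 151 counts in CD90+ pool 3 and 0 to 2 in the other CD90+ pools.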

How the results depend on the processing

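Of the values of single members under 18 alternatives, 509 kept their direction and side of the threshold, 19 lost a call, 10 gained one and 44 changed sign; for the other named genes these were 344, 51, 5 and 8. Mcm6 was called in 9 and Mcm7 in 10 of 19 settings, the reported one included. The mean log2 ratios of summed G1/S and G2/M levels stayed positive as shares of nuclear protein-coding counts (0.50 and 0.38, against 0.26 and 0.14). Pools higher in CD90- then numbered 5 of 5 for G1/S and 4 of 5 for G2/M, against 4 and 3 in CPM. Among low genes (Bub1, Gins1, Aurka, Aurkb, Ccne2), depth limits precision. The cause of the changes below was not tested.

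Genes called higher and lower numbered 896 and 1084; they were 421 and 544 with no replicate block, 1638 and 1814 in DESeq2, 0 and 0 with mitochondrial rRNA share added as covariate (higher in CD90- in 5 of 5 pools, so share and fraction cannot be told apart), 357 and 184 without pools 4 and 5, and 308 and 396 at a threshold of 0.01. Leaving out 1 pool gave 308 to 820 higher and 367 to 1199 lower. G1/S members called higher numbered 2, and 0 with no block, a length offset, the covariate, without pools 4 and 5 or at 0.01; leaving out 1 pool gave 0 to 1. DESeq2 called 1 G1/S member lower, Ccne1, and DESeq2 and no filter each called 1 G2/M member higher, Bub1. Other cell cycle genes called higher numbered 8, and 4 with no block, 0 with the covariate, 2 without pools 4 and 5, 3 at 0.01 and 3 to 9 with 1 pool left out. Those called lower numbered 1, and 3 in DESeq2, 2 in limma-voom, with no filter or with protein-coding genes only, 0 with no block, a length offset, the covariate or at 0.01, and 0 to 1 with 1 pool left out. Under the covariate the median log2 fold change was 1.18 for G2/M and 0.81 for G1/S; with 1 pool left out it was -0.23 to 0.21 for G2/M and -0.07 to 0.16 for G1/S.

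Changes of sign, as log2 fold changes, were these. With no replicate block: Ccnb1 -0.17, Aurka -0.042, Cdc6 0.051, Tyms -0.012. In limma-voom: Ccnb1 -0.17, Cdc6 0.18, Tyms -0.032. Cdc6 was 0.0026 with relative log expression factors, 0.022 with upper-quartile scaling and 0.0042 in DESeq2. With the length offset: Plk1 0.028, Tpx2 0.30, Cdc6 0.27, Gins2 0.15, Tyms -0.35. With the covariate: Ccnb2 1.54, Plk1 0.41, Tpx2 0.47, Ccna2 1.60, Mcm3 0.65, Cdc6 1.96, Ccne2 3.12, Cdk2 0.44, Cdkn1b -0.81, Cdkn2b -0.82, Cdkn2d -0.41, Rrm1 0.019. Without pools 4 and 5: Ccnb1 -0.29, Aurka -0.082, Cenpf 0.022, Mcm2 -0.015, Mcm4 -0.019, Cdc6 0.012, Tyms -0.13. With 1 pool left out the ranges were -0.026 to 0.73 for Top2a, -0.23 to 0.27 for Ccnb1, -0.75 to 0.056 for Ccnb2, -0.028 to 0.21 for Birc5, -0.34 to 0.73 for Aurka, -0.78 to 0.23 for Plk1, -0.065 to 0.15 for Mcm2, -0.082 to 0.23 for Mcm4, -0.086 to 0.79 for Pcna, -0.25 to 0.23 for Cdc6, -0.14 to 0.17 for Tyms, -0.049 to 0.18 for E2f1, -0.11 to 0.18 for Cdkn2b and -0.21 to 0.74 for Cdkn2d.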
